A study of Mus musculus with 18 samples.

Results

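The effect of removing TRAF3 from beta cells was set against diet in mouse pancreatic islets, by asking for each gene whether the difference between TRAF3 knockout and control islets on high-fat diet (HFD) differed from the same difference on chow. This quantity, the interaction, is the log2 difference knockout minus control on HFD minus the log2 difference knockout minus control on chow. It is positive where the knockout effect was higher on HFD and negative where it was higher on chow. It rests on 12 of the 18 arrays of the series, 3 in each of 4 groups chosen by sample title. The groups were HFD_bTRAF3 and HFD_wt_flox, from mice given 8 weeks of a diet with 45% of its energy as fat from 8 weeks of age, and Chow_bTRAF3 and Chow_wt_flox, from mice kept on chow. All mice were 16 weeks old, of both sexes and on a C57BL/6 background. By the sample labels, knockouts carried loxP-flanked TRAF3 alleles and a Cre recombinase under the rat insulin promoter (RIPCre), whose transgenes are known to act in some neurons too. Controls were labelled as floxed wild types, and which gene was floxed in them, or whether they carried Cre, is not given in the sources used here. The other 6 arrays came from beta cell TRAF2 knockouts on HFD and on chow. Nothing in the labels says that each array is a separate animal, so p-values measure the spread between these samples, which may be technical.

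TRAF3 is an adaptor protein that, together with TRAF2 and cIAP ubiquitin ligases, marks the NF-kB inducing kinase (NIK) for degradation. Without it NIK accumulates and drives processing of the NF-kB2 precursor p100 to p52, the non-canonical arm of NF-kB signalling. TRAF3 also acts below Toll-like and RIG-I-like receptors, where it takes part in the induction of type I interferon. A diet rich in fat raises the demand for insulin and is known to bring macrophages into islets.

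The arrays carried high levels of islet hormones and also of an exocrine enzyme. Over these 12 arrays the log2 level of Ins2 lay between 11.01 and 12.07, that of glucagon (Gcg) between 12.70 and 13.09 and that of the acinar enzyme Cpa1 between 12.85 and 13.51. HFD knockout 3 and HFD control 3 had the least spread of values of all arrays (SD over probe sets 2.278 and 2.310, against 2.344 to 2.405 in the others). By Xist and the Y-linked Eif2s3y, 2 of 3 HFD knockout arrays, 3 of 3 HFD control arrays, 1 of 3 chow knockout arrays and 1 of 3 chow control arrays read as female. HFD knockout 2 had a lymphocyte marker score (mean log2 deviation of the listed genes from their all-array means) of 1.41, against -0.641 and -0.481 in HFD knockouts 1 and 3. Chow TRAF2 knockout 1, used only where TRAF3 is set against TRAF2, correlated best with the chow TRAF3 knockouts (mean r = 0.9824, against 0.9691 with its own group). The level of TRAF3 itself was not analysed here, so the genotype labels were not checked by it. The genotypes follow the sample labels, whereas the design text of the series names TRAF2 in the knockouts of both kinds.

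The arrays labelled HFD TRAF3 knockout carried little of the difference between diets that the other genotypes shared. In a check chosen after seeing the data, 115 genes (0.518% of those tested, while 1.96% passed in TRAF2 knockouts whatever the controls did) passed with the same sign for HFD against chow in controls and in TRAF2 knockouts. Of these, 76 were higher on HFD, with median log2 differences of 1.85 in TRAF2 knockouts and 1.58 in controls. Their median in TRAF3 knockouts was 0.25, where 49 of the 76 had the same sign, 8 passed in the same direction and 2 in the opposite one. Of the 76, 6 are on the myeloid list (Adgre1, Csf1r, Lyz1, Tyrobp, C1qb and Mrc1) and 4 on the list of stellate cells, fibroblasts and pericytes (Acta2, Tagln, Myh11 and Cnn1). These lists are short, so the counts understate the genes of such cells among the 76. Retnla, Folr2, Cd209d and F13a1, given below with the macrophage genes, are among the 76 and on neither list. The part of these cells was not tested. The mean deviation of these 76 genes from their all-array means was -0.26, -0.09 and -0.55 in the 3 HFD TRAF3 knockout arrays and -0.48, -0.63 and -0.49 in the chow TRAF3 knockout arrays. It was 0.73 to 1.24 in HFD controls and -0.75 to -0.54 in chow controls. On these genes the HFD TRAF3 knockout arrays lay nearer to the chow controls than to the HFD controls. The genes were chosen by the diet difference in controls and TRAF2 knockouts on these same arrays. That choice sets the HFD and chow arrays of both apart and raises their medians, so the gap to the TRAF3 knockouts is not an independent result. The other 39 genes were lower on HFD in both other genotypes (medians -0.96 in TRAF2 knockouts and -0.84 in controls), and had a median of 0.11 in TRAF3 knockouts, where 15 had the same sign, 3 passed in the same direction and 7 in the opposite one. HFD knockouts 1 and 2 correlated best, over all genes, with the HFD TRAF2 knockouts (mean r = 0.9822 and 0.9800, against 0.9773 and 0.9713 with their own group). HFD controls 1 and 2 also correlated best with the HFD TRAF2 knockouts (0.9882 and 0.9901), so this was not particular to the TRAF3 knockouts. For HFD knockout 1 the chow controls came close (0.9807). HFD knockout 3 correlated best with the chow controls (0.9730, against 0.9655 with its own group). The closest single array was chow TRAF2 knockout 3 for HFD knockout 1, HFD knockout 1 for HFD knockout 2 and chow control 3 for HFD knockout 3. In controls, HFD against chow also sets 3 of 3 arrays that read as female against 1 of 3, and this check took no account of sex. The cause of the small shared diet difference in TRAF3 knockouts was not tested, and the labels are used as given.

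**Figure D1:**
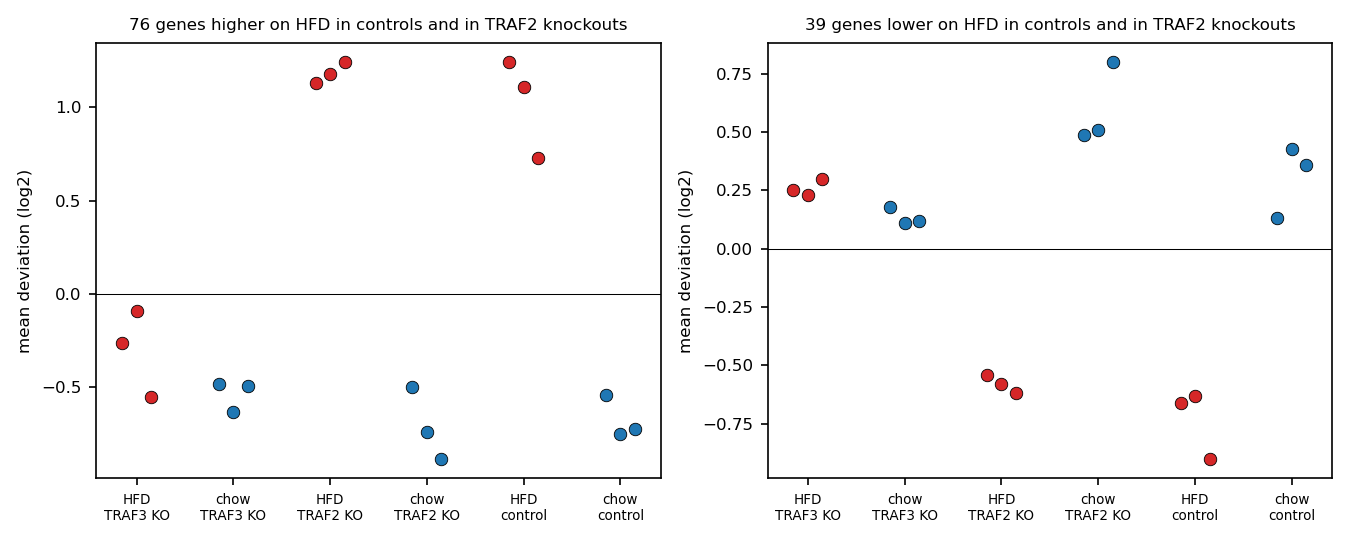
Mean deviation (log2) of the 76 genes higher and the 39 genes lower on HFD in both controls and TRAF2 knockouts, for each of the 18 arrays, with HFD arrays in red and chow arrays in blue. The HFD TRAF3 knockout arrays lie between -0.55 and -0.09 for the 76 genes, below the HFD controls at 0.73 to 1.24. The genes were chosen by the diet difference in controls and TRAF2 knockouts, which sets the diets apart in these groups.

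The knockout effect differed between diets for 1287 of 22180 genes (5.8%; limma, adjusted p under 0.05), being more positive on HFD for 558 (2.52%) and more negative for 729 (3.29%). A single call in a short list is little more than the 5.8% of all genes would give. Such calls below describe the gene and not its list. The median interaction over all genes was -0.008146. With each array centred on its median the split turned to 694 positive and 584 negative, with a shift of the all-gene median to 0.06041. The 2 knockout effects had opposite signs on the diets for 1144 of the 1287, of which 499 were positive and 645 negative interactions. Choosing genes by the interaction favours opposite signs, and of these 499 and 645 only 15 and 14 passed on both diets taken singly, while 140 and 114 passed on neither. The count of interactions was 414 without chow knockout 3, 614 without chow knockout 1, 681 without HFD knockout 2, 851 without HFD control 2, 730 without HFD control 3, 714 without chow control 2 and 1963 without HFD knockout 3. In whole islets, fewer cells of a type and less RNA per cell cannot be told apart.

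Taken each on its own, the knockout passed for 560 genes on HFD (2.52%; 372 higher, 1.68%, and 188 lower, 0.848%) and for 2445 genes on chow (11%; 1405 higher, 6.33%, and 1040 lower, 4.69%). The 2 contrasts share no array, but both take each gene's spread from the same fit of all 18 arrays, so their calls are not independent. Of the 372 genes higher on HFD, 77 (20.7%) were also called higher on chow, and these 77 are 5.48% of the 1405 genes higher on chow. Another 15 of the 372 were called lower on chow. Of the 188 genes lower on HFD, 15 (7.98%) were called lower on chow, which is 1.44% of the 1040. Nearly as many of the 188, 14, were called higher on chow. The 1405 genes higher on chow, with a median log2 difference of 0.8079 there, had a median of -0.02731 on HFD. Genes lower on chow had medians of -0.7789 there and -0.03093 on HFD. On HFD the count was 249 without HFD knockout 2, 337 without HFD knockout 1, 312 without HFD control 2 and 291 without HFD control 3. On chow it was 786 with chow knockout 3 left out, 1172 with chow knockout 1, 1117 with chow control 1 and 1580 with chow control 2. With a score of ductal markers as a covariate the counts were 1312 on HFD and 676 on chow, and with a score of acinar markers they were 874 on HFD and 4097 on chow. The median SE of a knockout effect on 1 diet was 0.176 and that of the interaction 0.249.

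**Figure D2:**
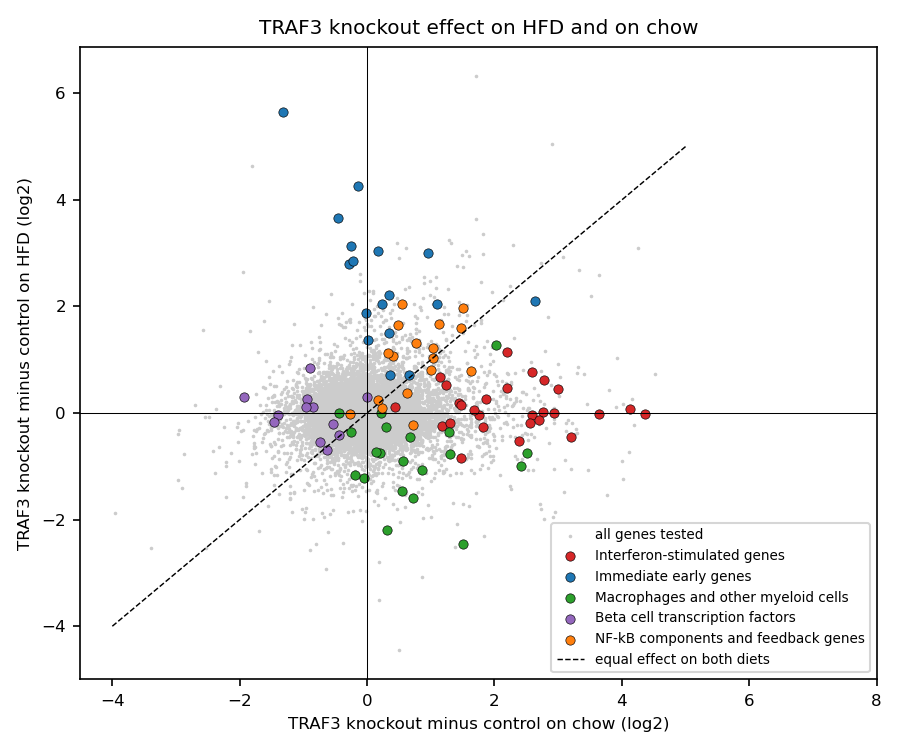
Log2 difference TRAF3 knockout minus control for every gene on HFD (vertical) and on chow (horizontal), with 5 gene lists in colour and a dashed line where both effects are equal. Interferon-stimulated genes lie to the right along the horizontal axis with a median of 2.20 on chow and 0.015 on HFD, and immediate early genes lie along the vertical axis with medians of 2.21 on HFD and 0.16 on chow.

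Interferon-stimulated genes rose with TRAF3 loss on chow, while on HFD their median difference was near 0. Of 27 measured, 18 had a negative interaction that passed and 0 a positive one, with a median of -2.08 (all genes -0.008146). On chow 25 of the 27 rose (median 2.20) and on HFD 1 did (median 0.015). Irf7, the transcription factor that amplifies the type I interferon response, read 6.61, 6.95 and 6.32 in HFD knockouts, against 6.74, 7.22 and 6.00 in HFD controls. On chow it read 11.03, 10.99 and 11.08 in chow knockouts, against 6.44, 6.91 and 6.69 in chow controls. The chow knockouts stood alone and the other 9 arrays overlapped, with an interaction of -4.38 ± 0.76 SE, adjusted p = 0.00762. Bst2 (tetherin), a membrane protein that holds budding virions on the cell, read 5.63, 5.94 and 5.91 in HFD knockouts, against 5.61, 5.96 and 5.95 in HFD controls. In chow mice it read 9.06, 9.02 and 9.24 in chow knockouts, against 5.34, 5.14 and 5.90 in chow controls (interaction -3.66 ± 0.43 SE, adjusted p = 0.00138). Again the chow knockouts lay above all other arrays of the 4 groups, 12.5-fold over their controls. Zbp1, a sensor of Z-form nucleic acids, ranged from 5.23 to 5.93 in HFD knockouts, against 4.62 to 5.90 in HFD controls, and from 9.04 to 9.33 in chow knockouts, against 5.01 to 5.22 in chow controls (interaction -4.05 ± 0.86 SE, adjusted p = 0.016). Oas2, which makes the 2-5A that activates RNase L, had an interaction of -3.66 ± 0.71 SE, adjusted p = 0.0119, and Ifi204, a member of the p200 family of nucleic acid sensors, one of -4.85 ± 1.09 SE, adjusted p = 0.0203. Leaving out 1 array at a time gave 15 to 20 negative calls in this list. The fit with the female arrays only leaves 1 chow knockout and 1 chow control, so its calls are not counted for this or other lists.

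Many interferon-induced genes are known to carry the interferon-stimulated response element, a motif bound by IRF and STAT complexes, and 4 promoters that hold it are shown, picked for that from the members with the larger interactions of their lists. In the RefSeq promoter table (300 bases around each start, most of them before it, GRCm38.p6) the letters GAAA, any 2 bases and GAAA again, or their complement (TTTC, any 2 bases, TTTC), occurred in 1079 of 27025 genes (3.99%), against 11 of 19 interferon-stimulated genes matched (57.9%), 6 of 6 guanylate-binding proteins and immunity-related GTPases and 4 of 12 class I genes (33.3%). Capitals mark every match.
Bst2: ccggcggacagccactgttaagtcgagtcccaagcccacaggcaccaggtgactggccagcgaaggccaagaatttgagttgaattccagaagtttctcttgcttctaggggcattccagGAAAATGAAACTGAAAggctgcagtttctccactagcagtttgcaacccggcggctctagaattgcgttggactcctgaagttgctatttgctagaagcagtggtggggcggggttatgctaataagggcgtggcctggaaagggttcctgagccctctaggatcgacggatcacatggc
Gbp3: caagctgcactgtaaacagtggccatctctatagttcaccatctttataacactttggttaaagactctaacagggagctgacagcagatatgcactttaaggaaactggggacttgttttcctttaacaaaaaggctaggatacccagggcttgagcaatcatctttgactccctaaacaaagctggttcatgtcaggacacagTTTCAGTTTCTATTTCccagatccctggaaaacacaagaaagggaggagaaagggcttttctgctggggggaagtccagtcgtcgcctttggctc
Irgm2: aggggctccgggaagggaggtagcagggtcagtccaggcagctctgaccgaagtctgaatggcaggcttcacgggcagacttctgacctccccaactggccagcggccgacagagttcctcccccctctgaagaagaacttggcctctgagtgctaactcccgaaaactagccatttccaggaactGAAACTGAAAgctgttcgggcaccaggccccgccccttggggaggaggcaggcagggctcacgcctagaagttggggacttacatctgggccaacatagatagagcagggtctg
H2-T23: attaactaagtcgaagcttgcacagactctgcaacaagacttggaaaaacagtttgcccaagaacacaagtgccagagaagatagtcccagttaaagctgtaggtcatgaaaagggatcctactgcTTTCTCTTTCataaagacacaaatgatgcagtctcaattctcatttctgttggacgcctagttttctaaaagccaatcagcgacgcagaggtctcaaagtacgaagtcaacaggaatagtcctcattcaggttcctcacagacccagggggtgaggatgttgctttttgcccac
Bst2 is at chr8:71537423-71537722, minus strand, Gbp3 at chr3:142559794-142560093, plus strand, Irgm2 at chr11:58214727-58215026, plus strand and H2-T23 at chr17:36032652-36032951, minus strand. In Bst2 and in Gbp3 the 2 matches overlap by 4 bases. The window of another listed start of Gbp3 held no match, nor did those of Irf7, Tap1, Psmb10 and Psmb8. A match is a description of the letters, and binding was not measured.

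The guanylate-binding proteins and immunity-related GTPases, which attack vacuoles that hold pathogens, followed the same course. Of 10 measured, 7 had a negative interaction (median -2.25), 9 rose on chow and 0 passed on HFD. Gbp3 read 3.61, 4.05 and 3.57 in HFD knockouts, against 3.93, 3.64 and 3.14 in HFD controls, and 7.14, 6.91 and 7.14 in chow knockouts, against 3.26, 3.97 and 3.59 in chow controls (interaction -3.28 ± 0.53 SE, adjusted p = 0.00585). Its control levels lie below the array medians, so the size is uncertain. Irgm2, Igtp and Iigp1, all interferon-inducible GTPases, had interactions of -2.40, -2.37 and -2.83 (adjusted p = 0.0112, 0.0159 and 0.0245). Of 14 genes of antigen processing and MHC class I, 9 had a negative interaction (median -0.97), 11 rose on chow and 0 passed on HFD. H2-T23, the non-classical Qa-1 molecule, read 7.46, 7.70 and 6.65 in HFD knockouts, against 7.89, 7.77 and 7.51 in HFD controls. In chow mice the values were 9.51, 9.76 and 9.44 in chow knockouts, against 7.35, 7.38 and 6.99 in chow controls (interaction -2.78 ± 0.48 SE, adjusted p = 0.0077). The peptide transporter Tap1 (-2.46 ± 0.49 SE, adjusted p = 0.0126) and the immunoproteasome subunits Psmb10 (-1.95 ± 0.45 SE, adjusted p = 0.0227) and Psmb8 (-1.85 ± 0.33 SE, adjusted p = 0.0085) moved with it. The class I count was 3 without chow knockout 3, 4 without chow knockout 1, and 5 without HFD knockout 1, HFD control 1 or chow control 1, while the guanylate-binding and GTPase count was 4 without chow knockout 1. None of the 6 class II genes passed the interaction, at any sign or at an unadjusted p under 0.05 in limma, and H2-Eb1 and H2-Aa had values of 0.57 and 0.26. Class I, guanylate-binding and GTPase genes have near-identical relatives whose probes may share signal.

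Of 27 chemokines, cytokines and adhesion molecules, 15 rose and 1 fell on chow, 2 rose on HFD, and 5 had a negative interaction (median -0.84). The 2 rises on HFD were 0 without HFD knockout 1 or 2 or without HFD control 1. Ccl2, the monocyte attractant, read 6.66, 7.52 and 7.33 in HFD knockouts, against 6.28, 6.72 and 5.39 in HFD controls, and 10.50, 9.93 and 10.49 in chow knockouts, against 5.32, 7.04 and 6.80 in chow controls (interaction -2.88 ± 0.70 SE, adjusted p = 0.0259). The neutrophil attractant Cxcl3 (-3.90 ± 0.92 SE, adjusted p = 0.0237), the lymphocyte attractant Ccl5 (-3.37 ± 0.95 SE, adjusted p = 0.0495) and Ccl7, a relative of Ccl2 (-2.45 ± 0.61 SE, adjusted p = 0.0299), also passed. In HFD knockout 2, the array with the high lymphocyte score, Ccl5 read 9.09, with 6.56 in HFD knockout 1 and 6.62 in HFD knockout 3. No gene of this list passed the interaction without HFD knockout 1, chow knockout 1 or chow knockout 3, 1 did without HFD control 2, 2 did without HFD control 1, and 3 did without HFD knockout 3, HFD control 3, chow control 2 or chow control 3. Without chow control 1, 2 were negative and 1 was positive, and on chow the 15 rises were 8 without chow knockout 1. Of 18 genes of the IL-6, STAT3 and acute phase list 7 rose and 1 fell on chow, 2 rose on HFD, and 2 had a negative interaction, the fibrinogen chain Fgg (-3.85 ± 0.96 SE, adjusted p = 0.0299, with low levels in all groups but the chow knockouts) and ceruloplasmin, Cp (-2.41 ± 0.65 SE, adjusted p = 0.0414). That count was 0 without HFD knockout 2, chow knockout 1 or 3, HFD control 2, or chow control 1 or 2, and 3 without chow knockout 2. The cytokine Il6 rose on both diets, by 3.09 ± 0.66 SE, adjusted p = 0.0193 on HFD and 4.26 ± 0.66 SE, adjusted p = 0.00152 on chow, with an interaction of -1.17 that did not pass. Complement factor Cfb (-3.29 ± 0.73 SE, adjusted p = 0.0189) and the C1 inhibitor Serping1 (-1.85 ± 0.47 SE, adjusted p = 0.0323) were the 2 of 8 complement genes that passed. Tnfsf15 and Tnfsf10 (TRAIL), 2 of 15 TNF ligands and receptors, had interactions of -1.11 and -1.10 (adjusted p = 0.0235 and 0.0429). Without chow knockout 3, 0 genes of the complement list and 0 of the TNF list passed.

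NF-kB components and feedback genes rose on both diets. Of 17 measured, 11 rose on HFD (median 1.06) and 9 on chow (median 0.72), while 1 had an interaction that passed. Nfkb2, which encodes the p100 precursor processed under NIK and was singled out after its values were seen, read 7.94, 8.16 and 7.99 in HFD knockouts, against 6.56, 6.55 and 6.20 in HFD controls. Chow arrays gave 8.58, 8.35 and 8.83 in chow knockouts, against 6.16, 7.64 and 7.53 in chow controls, where chow control 1 lay far below the other 2 controls. It rose by 1.59 ± 0.29 SE, adjusted p = 0.00696 on HFD and by 1.48 ± 0.29 SE, adjusted p = 0.00517 on chow, and the interaction was 0.12 ± 0.41 SE, adjusted p = 0.912. Ikbkg (NEMO), the regulatory subunit of the canonical IkB kinase, was the member that passed, at -0.95 ± 0.22 SE, adjusted p = 0.0207, and none did without HFD knockout 2 or chow knockout 3. On HFD the count of rises was 5 without HFD knockout 2 or without HFD control 3.

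Immediate early genes ran the other way, rising in HFD knockouts over HFD controls with a small median difference on chow. These genes are switched on within minutes by depolarisation, calcium, growth factors, stress or tissue handling. Of 17 measured, 8 had a positive interaction that passed and 0 a negative one (median 1.90), 14 rose on HFD (median 2.21) and 2 on chow (median 0.16). Fosb, an AP-1 subunit, read 12.64, 12.65 and 9.68 in HFD knockouts, against 5.85, 6.34 and 5.83 in HFD controls. The chow values were 6.60, 6.94 and 6.40 in chow knockouts, against 7.15, 8.38 and 8.38 in chow controls. HFD knockout 3 lay well below the other HFD knockouts yet above every array of the other 3 groups (interaction 6.97 ± 1.40 SE, adjusted p = 0.013). Jun, the partner of Fos proteins in AP-1, read 11.98, 11.85 and 11.10 in HFD knockouts, against 8.28, 8.81 and 8.42 in HFD controls, and 9.99, 9.59 and 9.93 in chow knockouts, against 9.84, 9.89 and 10.51 in chow controls (interaction 3.39 ± 0.42 SE, adjusted p = 0.00241). Its HFD controls were the lowest of the 4 groups and its HFD knockouts the highest. Npas4, which depolarisation and calcium induce in neurons and beta cells, read 10.59, 10.76 and 8.24 in HFD knockouts, against 5.41, 5.72 and 4.54 in HFD controls. Under chow the gene stood at 5.25, 5.56 and 5.12 in chow knockouts, against 6.43, 7.53 and 7.41 in chow controls (interaction 6.45 ± 1.05 SE, adjusted p = 0.00585). Atf3, a stress-induced repressor (4.40 ± 0.85 SE, adjusted p = 0.0112), and the orphan nuclear receptors Nr4a1 (4.12 ± 0.95 SE, adjusted p = 0.0221) and Nr4a3 (2.87 ± 0.75 SE, adjusted p = 0.0361) followed, as did the zinc finger factor Egr1 (3.07 ± 0.80 SE, adjusted p = 0.0362). Fosb and Npas4 read lower in every chow knockout than in any chow control, which makes up part of their interactions. The list score, the mean deviation of its genes from their all-array means, was 2.00, 1.93 and 0.589 in HFD knockouts and -1.20 to -0.707 in HFD controls. The count was 14 without HFD knockout 3, 3 without HFD knockout 1 or 2, without HFD control 3, without chow knockout 3 or without chow control 2, and 5 without HFD control 1 or chow knockout 1 or 2.

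Cyclic AMP and calcium act on several immediate early genes through the CRE, so the promoters of Fosb and Nr4a1 are shown, with its core (TGACG, or CGTCA on the other strand) in capitals. The core was chosen after seeing the data. It occurred in 10 of the 13 immediate early genes matched (76.9%), against 6228 of 27025 genes (23%), and in 50.0% of 12 matched class I genes. The full site TGACGTCA occurred in 1 of the 13 (7.69%), against 2.03% of all genes, and it holds the core on both strands.
Fosb: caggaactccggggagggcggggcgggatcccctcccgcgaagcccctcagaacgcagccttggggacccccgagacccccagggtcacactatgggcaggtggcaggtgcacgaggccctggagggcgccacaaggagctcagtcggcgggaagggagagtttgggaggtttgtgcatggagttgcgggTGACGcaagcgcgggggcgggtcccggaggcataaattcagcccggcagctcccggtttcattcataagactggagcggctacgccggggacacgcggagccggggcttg
Nr4a1: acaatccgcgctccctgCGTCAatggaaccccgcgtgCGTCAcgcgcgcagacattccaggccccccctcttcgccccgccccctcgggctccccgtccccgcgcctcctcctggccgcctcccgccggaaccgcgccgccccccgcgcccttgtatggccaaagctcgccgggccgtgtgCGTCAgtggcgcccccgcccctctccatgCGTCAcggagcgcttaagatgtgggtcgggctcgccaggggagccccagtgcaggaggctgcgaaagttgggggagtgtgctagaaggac
Fosb is at chr7:19309996-19310295, minus strand, and Nr4a1 at chr15:101266596-101266895, plus strand, both from RefSeq on GRCm38.p6.

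Single stress genes and 5 of 14 clock genes had positive interactions. Hspa1a, the inducible HSP70, read 10.86, 10.72 and 9.66 in HFD knockouts, against 7.79, 7.53 and 6.65 in HFD controls, and 8.83, 9.01 and 9.33 in chow knockouts, against 8.54, 8.06 and 8.75 in chow controls (interaction 2.49 ± 0.51 SE, adjusted p = 0.0145), the 1 of 10 heat shock genes that passed, and its neighbour gene codes for a near-identical protein. At an unadjusted p under 0.05 in limma, 3 heat shock genes were positive and 3 negative. Of 13 integrated stress response genes, Ddit3 (CHOP, 2.29 ± 0.64 SE, adjusted p = 0.0471) and the phosphatase subunit Ppp1r15a (GADD34, 2.15 ± 0.41 SE, adjusted p = 0.0112) passed. Of 19 genes of ER folding and degradation 1 passed, which is near the 5.8% of all genes. It was the chaperone Hspa5 (BiP, 0.94 ± 0.23 SE, adjusted p = 0.0293). Rsph4a, a radial spoke protein of motile cilia (4.60 ± 0.97 SE, adjusted p = 0.0153), and Wee1, a kinase that holds cells before mitosis (2.83 ± 0.57 SE, adjusted p = 0.013), were also among the 10 largest positive interactions, small RNAs and predicted genes left out. In the circadian clock list 5 of 14 had a positive interaction (median 1.14). Nr1d1 (REV-ERB alpha), a repressor in the clock, read 10.57, 11.01 and 9.93 in HFD knockouts, against 9.73, 9.55 and 9.08 in HFD controls. On chow it read 8.59, 8.71 and 8.50 in chow knockouts, against 10.15, 9.47 and 9.77 in chow controls (interaction 2.25 ± 0.45 SE, adjusted p = 0.0132). Ciart (2.26 ± 0.57 SE, adjusted p = 0.0314), the output factor Dbp (1.80 ± 0.44 SE, adjusted p = 0.0262) and Nr1d2 (1.17 ± 0.31 SE, adjusted p = 0.0392) passed too. The clock count was 8 without HFD knockout 3, 2 without chow control 2 or chow control 3, and 1 without HFD knockout 1 or 2, HFD control 2 or 3, or chow knockout 1 or 3.

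**Figure D3:**
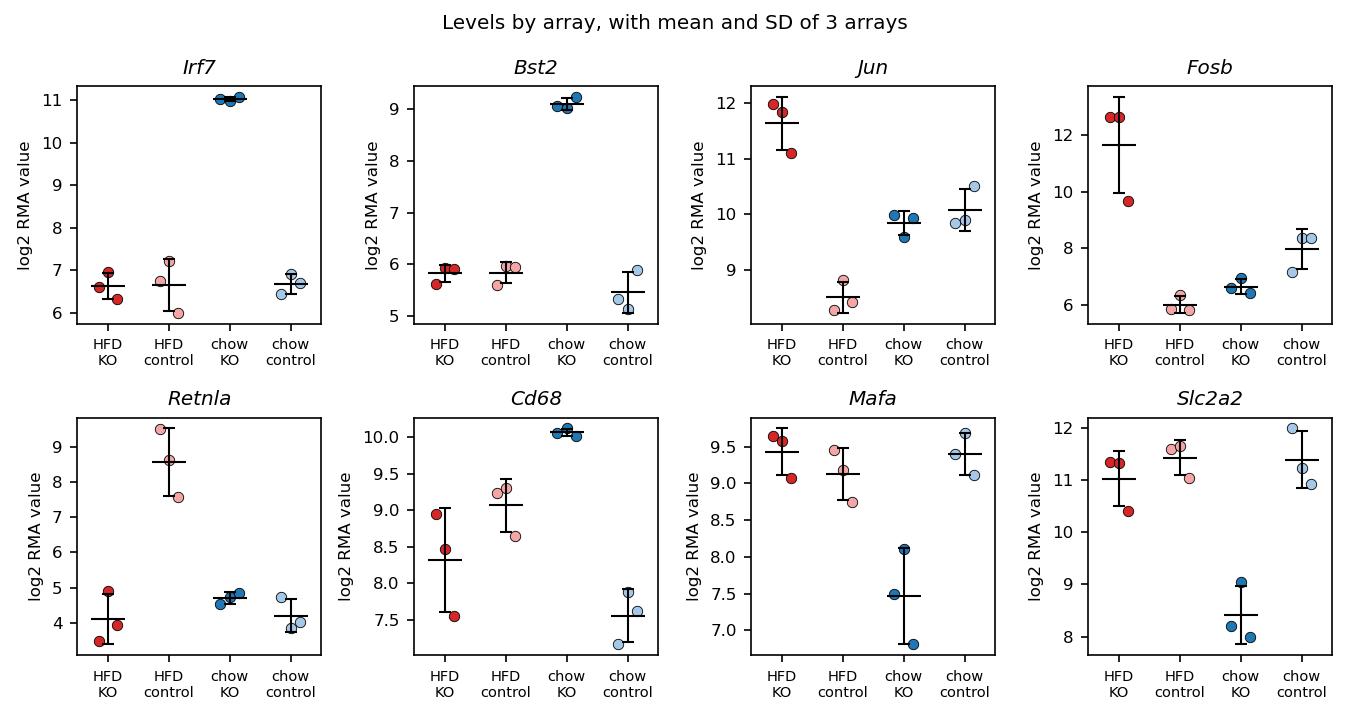
Log2 levels by array of 8 genes in HFD knockouts, HFD controls, chow knockouts and chow controls, with the mean and SD of 3 arrays. Irf7 and Bst2 are high in the chow knockouts only, Jun and Fosb in the HFD knockouts, Retnla in the HFD controls, and Mafa and Slc2a2 are low in the chow knockouts.

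Genes of beta cell identity were lower in knockouts on chow, while the median difference of the beta cell factors on HFD was near 0. Of 12 beta cell transcription factors 5 had a positive interaction and 0 a negative one (median 1.01). On chow 8 of the 12 fell (median -0.87), and on HFD 1 did (median 0.037). Mafa, which drives insulin transcription in mature beta cells, read 9.65, 9.58 and 9.07 in HFD knockouts, against 9.46, 9.18 and 8.75 in HFD controls. In chow mice the values were 7.49, 8.11 and 6.81 in chow knockouts, against 9.40, 9.68 and 9.11 in chow controls (interaction 2.23 ± 0.48 SE, adjusted p = 0.0168). The chow knockouts lay below every other array of the 4 groups. Pdx1, a master factor of pancreas and beta cells, read 9.14, 9.01 and 9.01 in HFD knockouts, against 9.27, 9.09 and 8.89 in HFD controls, and 7.89, 8.44 and 7.49 in chow knockouts, against 9.57, 9.41 and 9.05 in chow controls (interaction 1.38 ± 0.36 SE, adjusted p = 0.0351). Hnf4a (1.74 ± 0.42 SE, adjusted p = 0.0266) and Foxo1 (1.07 ± 0.23 SE, adjusted p = 0.0185) passed as well, though the other Foxo1 probe set gave 0.15. Of 18 genes of glucose sensing, incretin response and maturity, 17 had a positive interaction and 2 passed: Insrr, a receptor related to the insulin receptor (2.62 ± 0.61 SE, adjusted p = 0.0228), and the granule zinc transporter Slc30a8 (1.64 ± 0.46 SE, adjusted p = 0.0493). The glucose transporter Slc2a2 (GLUT2) read 11.35, 11.32 and 10.41 in HFD knockouts, against 11.59, 11.65 and 11.04 in HFD controls, and 8.20, 9.05 and 7.99 in chow knockouts, against 11.99, 11.23 and 10.93 in chow controls, and at 2.57 ± 0.74 SE, adjusted p = 0.0533 it did not pass. The granule tyrosine phosphatase Ptprn2 (0.99 ± 0.25 SE, adjusted p = 0.0326) was the 1 of 13 insulin and granule genes that did, Ins2 had an interaction of 0.66 (adjusted p = 0.123), and ghrelin, Ghrl (1.36 ± 0.33 SE, adjusted p = 0.0252), was the 1 of 10 other endocrine genes. Lactate dehydrogenase Ldha, a gene kept low in mature beta cells, passed in the other direction (-1.71 ± 0.41 SE, adjusted p = 0.0256), the 1 of 15 disallowed and dedifferentiation genes that did, while 4 of them rose on chow. The transcription factor count was 1 without chow knockout 3, 2 without chow knockout 1 or chow control 2, 3 without HFD knockout 1 or 2, HFD control 2 or 3, or chow control 1, and 2 without both least spread arrays. In the glucose sensing list the count was 8 without HFD knockout 3, 4 without chow knockout 2, 0 without HFD knockout 2, chow knockout 1 or 3 or HFD control 3, and 1 without HFD knockout 1, HFD control 1 or 2, or chow control 1 or 2.

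The list of lactogen responsive and serotonin genes includes genes known to rise in islets in pregnancy. Of the 16 measured, 8 rose with the knockout on HFD (median 1.23) and 6 on chow (median 0.99), and 1 had an interaction that passed. On chow 8 were higher and 4 lower at an unadjusted p under 0.05 in limma. The count on chow was 3 without any 1 chow knockout or without chow control 1 or 2. The member with an interaction was Tph1, the rate-limiting enzyme of serotonin synthesis, which read 11.08, 10.27 and 9.95 in HFD knockouts, against 3.76, 3.99 and 4.55 in HFD controls. Chow arrays gave 6.86, 7.92 and 6.93 in chow knockouts, against 4.15, 4.12 and 8.30 in chow controls. Chow control 3 lay above all chow knockouts, and the interaction was 4.61 ± 1.25 SE, adjusted p = 0.0412. The list gave no interaction without HFD knockout 1 or 2, chow knockout 1 or 3, or any 1 HFD control, and 3 without HFD knockout 3. Lrrc55, an auxiliary subunit of BK potassium channels, had the third largest rise on HFD (5.04 ± 0.58 SE, adjusted p = 0.000583), and an interaction of 2.14 (adjusted p = 0.138), with 0.70 by its other probe set.

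Macrophage genes showed a pair of patterns, both negative in the interaction. Of 20 myeloid markers, 7 had a negative interaction and 0 a positive one (median -1.31), 8 were higher on HFD than on chow in controls (median 1.53) and 2 fell with the knockout on HFD, while 4 rose with it on chow. The 2 falls were 0 without HFD control 1 or 2 and 4 without HFD control 3. The count of negative interactions was 4 without chow knockout 3 or chow control 2, and the 8 in controls were 2 without HFD control 2, chow control 2 or chow control 3. In the first pattern genes were high, among the 4 groups, in HFD controls alone. Retnla, Folr2, Cd209d, F13a1, Mrc1 and Lyz1 were also higher on HFD than on chow in TRAF2 knockouts, by log2 2.94 (Mrc1) to 5.46 (Retnla). All of these are among the 76 genes chosen above by that difference, so it is not a separate result. Retnla, made by alternatively activated macrophages, read 3.49, 4.89 and 3.94 in HFD knockouts, against 9.49, 8.62 and 7.57 in HFD controls. The chow values were 4.52, 4.72 and 4.86 in chow knockouts, against 4.73, 3.86 and 4.01 in chow controls (interaction -4.96 ± 0.57 SE, adjusted p = 0.00129). The HFD controls stood apart from the other 9 arrays, and its lowest group mean lies below the array medians. The folate receptor Folr2 (-3.95 ± 0.64 SE, adjusted p = 0.00585), the lectin Cd209d (-2.99 ± 0.57 SE, adjusted p = 0.0112), the clotting factor subunit F13a1 (-2.28 ± 0.51 SE, adjusted p = 0.0191) and the mannose receptor Mrc1 (-2.50 ± 0.61 SE, adjusted p = 0.0262), all known from resident or alternatively activated macrophages, did the same. Lysozyme Lyz1 (-3.95 ± 0.92 SE, adjusted p = 0.0227) and the neutrophil gene Retnlg (-1.65 ± 0.46 SE, adjusted p = 0.0469) did too, as did the chemokine Ccl6 (-4.15 ± 1.16 SE, adjusted p = 0.046), with its chow knockouts between. In the second pattern chow knockouts were as high as HFD controls or higher. Cd68, a lysosomal glycoprotein of macrophages, read 8.95, 8.47 and 7.55 in HFD knockouts, against 9.24, 9.31 and 8.65 in HFD controls. Under chow the gene stood at 10.05, 10.12 and 10.02 in chow knockouts, against 7.17, 7.89 and 7.62 in chow controls (interaction -3.26 ± 0.62 SE, adjusted p = 0.0104). Platelet factor Pf4 read 5.85, 5.69 and 5.47 in HFD knockouts, against 7.70, 7.98 and 7.16 in HFD controls, and 8.16, 7.86 and 8.05 in chow knockouts, against 5.04, 5.30 and 4.97 in chow controls (interaction -4.86 ± 0.81 SE, adjusted p = 0.00628). Ms4a6d (-5.25 ± 1.02 SE, adjusted p = 0.0119), Gpnmb (-4.89 ± 1.27 SE, adjusted p = 0.035), the chemokine Ccl9 (-4.76 ± 0.94 SE, adjusted p = 0.0126) and the high-affinity IgG receptor Fcgr1 (-3.42 ± 0.51 SE, adjusted p = 0.00496) belonged here. Fabp4, a fatty acid binding protein of adipocytes and macrophages, had an interaction of -3.68 ± 0.70 SE, adjusted p = 0.0111, while Adipoq, which defines adipocytes, lay between 3.44 and 3.85 on all 12 arrays.

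Markers of other cells gave few interactions that passed. The myeloid score was -0.936 to 0.346 in HFD knockouts, 0.0732 to 0.917 in HFD controls, -0.369 to -0.0464 in chow knockouts and -0.945 to -0.839 in chow controls. Of 13 stellate, fibroblast and pericyte markers 4 fell with the knockout on HFD and 4 were higher on HFD in controls. The 4 in controls were 1 without HFD control 2, chow control 2 or chow control 3. In the interaction 1 of the 13 passed (median -0.86), while 5 were negative and 0 positive at an unadjusted p under 0.05 in limma. Smooth muscle myosin Myh11 read 5.98 to 6.56 in HFD knockouts, against 7.45 to 8.62 in HFD controls (interaction -1.31 ± 0.35 SE, adjusted p = 0.0398). Smooth muscle actin Acta2 read 7.82 to 8.90 in HFD knockouts, against 10.48 to 11.29 in HFD controls, with an interaction of -1.68 ± 0.56 SE, adjusted p = 0.0873 that did not pass. Among 13 endothelial markers Cldn5 passed (-2.06 ± 0.33 SE, adjusted p = 0.00585), and among 12 ductal markers Anxa3 (-2.91 ± 0.74 SE, adjusted p = 0.0333) did. At an unadjusted p under 0.05 in limma, 4 endothelial markers were negative and 1 positive, and 1 ductal marker was negative and 0 positive. The ductal score was -0.408 to 0.447 in HFD knockouts, -0.569 to -0.23 in HFD controls, 0.426 to 0.924 in chow knockouts and -0.896 to 0.336 in chow controls, and keratin Krt20, of gut and ductal epithelia, had an interaction of -4.41 ± 1.25 SE, adjusted p = 0.0495. The neutrophil alarmin S100a8 passed at -1.23 (adjusted p = 0.0247) with its lowest group mean below the array medians, which made 2 of 8 neutrophil genes. No acinar gene (0 of 20) and no lymphocyte gene (0 of 18) passed in limma, with 0 and 1 at an unadjusted p under 0.05. The part of these cells in the gene lists above was not tested beyond the fits with ductal and acinar scores, which left 21 and 19 negative interferon-stimulated genes and 7 and 6 positive beta cell factors. No fit used the myeloid score or that of another cell type, so these counts do not settle the part of cell types. With the ductal score the knockout count went from 2445 to 676 genes on chow and from 560 to 1312 on HFD.

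Of 15 genes of fatty acid oxidation, lipid droplets and PPAR targets, 6 rose with the knockout on chow (2 without chow knockout 3), 1 fell on HFD, and 4 had a negative interaction. Plin2, which coats lipid droplets, read 7.92, 7.21 and 7.08 in HFD knockouts, against 8.01, 7.81 and 7.76 in HFD controls. On chow it read 10.30, 9.87 and 10.44 in chow knockouts, against 7.51, 7.68 and 7.54 in chow controls (interaction -3.08 ± 0.55 SE, adjusted p = 0.0085). Cd36, a fatty acid carrier also made by macrophages and endothelium, read 7.50, 7.67 and 6.64 in HFD knockouts, against 9.31, 9.43 and 9.29 in HFD controls, and 8.66, 8.66 and 8.68 in chow knockouts, against 7.08, 7.40 and 7.29 in chow controls (interaction -3.49 ± 0.53 SE, adjusted p = 0.00535). It was low in both HFD knockouts and chow controls. Angptl4, a lipase inhibitor (-2.44 ± 0.57 SE, adjusted p = 0.0226), and Acadl, an enzyme of beta oxidation (-1.37 ± 0.35 SE, adjusted p = 0.034), were the other two. The count was 2 without chow knockout 3, HFD control 3 or chow control 2. Of 14 hypoxia and glycolysis genes 6 rose and 1 fell on chow and 0 passed on HFD, and the 6 rises were 3 without chow knockout 1 or chow control 1. In the interaction 3 were negative, Car9 (-2.66 ± 0.49 SE, adjusted p = 0.00873, with -0.33 by its other probe set), the collagen hydroxylase P4ha1 (-1.47 ± 0.28 SE, adjusted p = 0.00984) and Pgk1 (-1.21 ± 0.29 SE, adjusted p = 0.0266), and Vegfa was positive (1.30 ± 0.24 SE, adjusted p = 0.00948). All 19 respiratory chain genes had negative interactions of small size (median -0.40), and Ndufa4 (-0.84 ± 0.16 SE, adjusted p = 0.0088), Cox7a2 (-0.64 ± 0.17 SE, adjusted p = 0.0352) and Ndufv2 (-0.59 ± 0.15 SE, adjusted p = 0.0307) passed. With each array centred, 18 of the 19 were negative and 1 passed, and with quantile normalization applied again 18 were negative. The count was 6 without HFD knockout 3 and 1 without HFD knockout 1, chow knockout 1 or 2, HFD control 2 or 3, or chow control 1 or 3. Of 15 cell death genes Mlkl, the effector of necroptosis (-2.33 ± 0.48 SE, adjusted p = 0.0144), and Casp8 (-1.07 ± 0.29 SE, adjusted p = 0.045) passed, and Elovl6, a fatty acid elongase, was the 1 of 14 genes of cholesterol synthesis and lipogenesis that did, with a positive value (1.15 ± 0.30 SE, adjusted p = 0.0351).

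**Figure D4:**
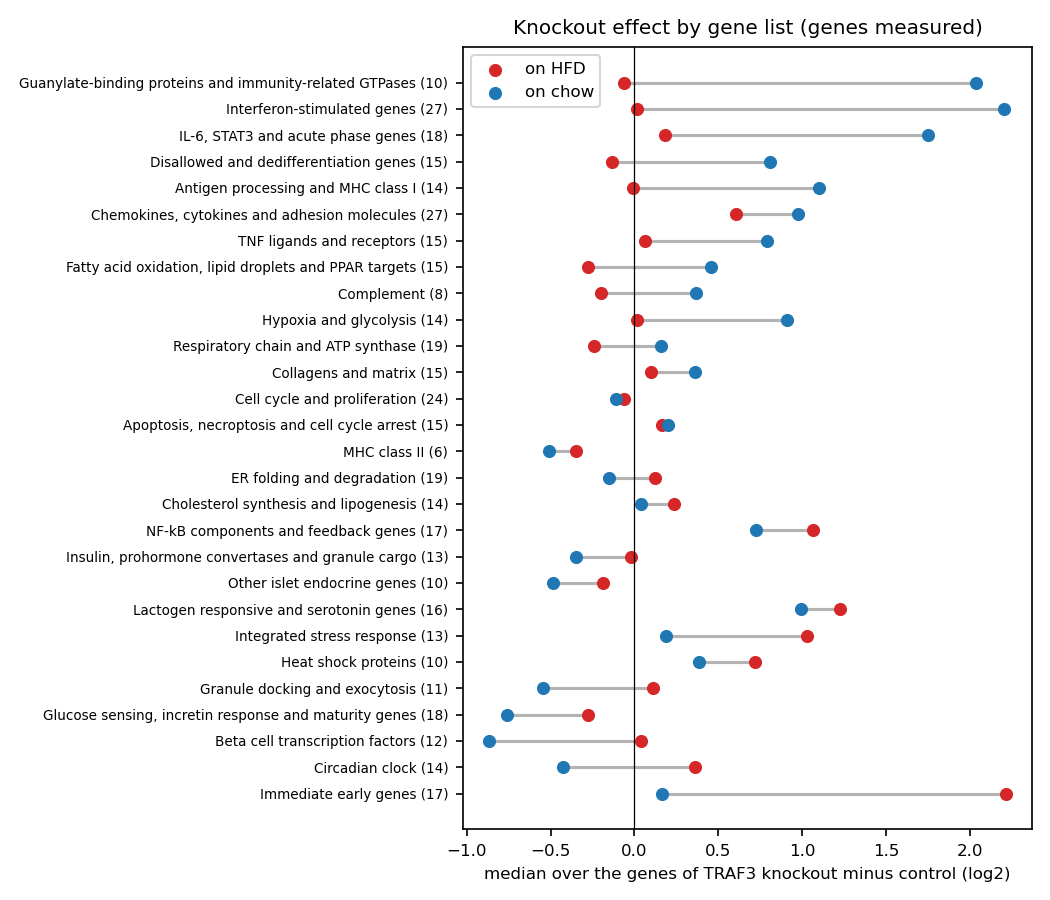
Median over the measured genes of each list (number in brackets) of the log2 difference TRAF3 knockout minus control, on HFD in red and on chow in blue, ordered by the interaction. Guanylate-binding and interferon-stimulated genes lie above 2 on chow and near 0 on HFD, immediate early genes show the reverse, and the NF-kB list and the lactogen responsive and serotonin list lie to the right on both diets.

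Some lists gave no call in limma. Among 24 cell cycle genes 0 passed the interaction, with 2 positive and 2 negative at an unadjusted p under 0.05, and Mcm3 and Pcna had values of -1.16 and -0.64. Among 15 collagens and matrix genes 0 passed, with 1 negative at an unadjusted p under 0.05, and Col18a1 and Col5a1 had values of -0.88 and -0.56 (Col5a1 -0.39 by its other probe set). Among 11 genes of granule docking and exocytosis 0 passed, with 4 positive at an unadjusted p under 0.05, and Snap25 and Rab3a had values of 0.89 and 0.79. Some of the largest knockout effects on chow fell short of an interaction: the serpin Serpina3n rose by 4.53 ± 0.81 SE, adjusted p = 0.00331 there, with an interaction of -3.79 ± 1.14 SE, adjusted p = 0.0628, and the calcium sensor Vsnl1, the protease Pappa2 and the pancreatic serpin Serpini2 fell on chow (log2 -2.97, -2.88 and -3.96) with interactions of 1.71, 2.11 and 2.08.

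Within genotype, HFD against chow passed for 1923 genes in TRAF3 knockouts (8.67%; 590 higher, 2.66%, and 1333 lower, 6.01%) and for 196 in controls (0.884%; 116 higher, 0.523%, and 80 lower, 0.361%). With each array centred the controls gave 124 higher and 363 lower. Diet and sex overlap in the controls, where 3 of 3 HFD arrays and 1 of 3 chow arrays read as female. With a sex score (Xist minus Eif2s3y) as a covariate the count was 49 in controls and 1811 in TRAF3 knockouts. In TRAF3 knockouts the count was 618 without chow knockout 3, 877 without HFD knockout 2, 902 without chow knockout 1 and 1228 without HFD knockout 1. In controls it was 19, 40, 55, 89 and 115 without chow control 2, HFD control 2, chow control 3, HFD control 3 and HFD control 1, and 603 without chow control 1. Of the 1287 interactions, 793 passed in the TRAF3 knockouts and 109 in controls. Interferon-stimulated genes were lower on HFD than on chow for 25 of 27 in knockouts and for 0 in controls. Immediate early genes were higher on HFD for 10 of 17 in knockouts (3 without HFD knockout 2). In controls, Jun was the 1 member that passed, lower on HFD (log2 difference -1.58 ± 0.30 SE, adjusted p = 0.0238).

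The change with diet also differed between the TRAF3 and the TRAF2 knockouts, a comparison in which controls cancel. It passed for 606 genes (2.73%), 258 more positive (1.16%) and 348 more negative (1.57%) in TRAF3 knockouts. Of the interferon-stimulated genes 13 of 27 were more negative (21 without chow TRAF2 knockout 1, whose Irf7 level was 9.26 while chow TRAF2 knockouts 2 and 3 had 6.46 and 6.33, and 6 without HFD TRAF2 knockout 2 or 3, chow TRAF2 knockout 2 or chow TRAF3 knockout 3). Of the immediate early genes 11 of 17 were more positive (3 without HFD TRAF2 knockout 2 or 3 or chow TRAF2 knockout 3, and 15 without HFD TRAF3 knockout 3). Fosb (7.70 ± 1.40 SE, adjusted p = 0.012), Npas4 (6.59 ± 1.05 SE, adjusted p = 0.0061), Atf3 (5.08 ± 0.85 SE, adjusted p = 0.00761), Nr4a1 (4.38 ± 0.95 SE, adjusted p = 0.0258) and Rsph4a (3.81 ± 0.97 SE, adjusted p = 0.0475) were the most positive, small RNAs left out. Retnla was the most negative (-6.05 ± 0.57 SE, adjusted p = 0.000174), and read 8.94, 8.85 and 9.27 in HFD TRAF2 knockouts. Folr2 (-4.21 ± 0.64 SE, adjusted p = 0.00564), Pf4 (-4.09 ± 0.81 SE, adjusted p = 0.0183), Cd209d (-3.60 ± 0.57 SE, adjusted p = 0.0061) and Cd36 (-3.51 ± 0.53 SE, adjusted p = 0.00536) came next, predicted genes left out. Over all genes the count was 1582 without chow TRAF2 knockout 1 and 140 to 269 without any HFD TRAF2 knockout, chow TRAF2 knockouts 2 or 3, HFD TRAF3 knockout 2, or chow TRAF3 knockouts 1 or 3, and 399 without chow TRAF3 knockout 2.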

How the data were processed

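The authors deposited log2 expression values for 41345 probe sets on 18 Affymetrix arrays, normalized by RMA per the submitters' processing notes, which also name limma. Of these, 23521 probe sets carry 1 gene symbol, 1814 several and 16010 none, and the probe set with the highest mean over all arrays stood for each of 22180 genes. Array medians lay between 4.80 and 4.96, and the number of arrays limits the precision. limma 3.58.1 (R 4.3.3) fitted 6 group means of 3 arrays with shared spread (12 residual and 3.69 prior degrees of freedom). Tests were two-sided, with Benjamini-Hochberg adjustment over all genes and a threshold of 0.05. A fold is 2 to the power of the log2 difference. The fit was tested on simulated data.

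Genes named were the 10 largest interactions of each sign, up to 4 passing members of each list by size (or the 2 with the smallest p where none passed), the 5 largest of each sign between TRAF3 and TRAF2 knockouts, and the 5 largest of each sign on each diet, small RNAs and predicted genes left out. The comparison, the lists and this rule were chosen with earlier results of these data known. The diet check, the CRE core motif and the fit without both least spread arrays were chosen after seeing the data. Alternatives were another scaling, moderation, dim genes left out, all probe sets, only the arrays compared, replicate number as a block, sex, ductal and acinar scores as covariates, female arrays only, and each array left out.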

Additional observations from a re-analysis of the deposited data

Results flagged for a closer look

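Every result here was picked out because the knockout effect, or the change with diet, differed between groups by a test of the difference itself in limma. The TRAF3 knockout effect differed between diets for 1287 genes, and the change with diet differed between TRAF3 and TRAF2 knockouts for 606 genes. The 85 named genes that passed the interaction are given with its log2 value. More positive on HFD were Fosb 6.97, Npas4 6.45, Tph1 4.61, Rsph4a 4.60, Atf3 4.40, Nr4a1 4.12, Jun 3.39, Egr1 3.07, Nr4a3 2.87 and Wee1 2.83. Smaller positive values were those of Insrr 2.62, Hspa1a 2.49, Ddit3 2.29, Ciart 2.26, Nr1d1 2.25, Mafa 2.23, Ppp1r15a 2.15, Dbp 1.80 and Hnf4a 1.74. Positive too were Slc30a8 1.64, Pdx1 1.38, Ghrl 1.36, Vegfa 1.30, Nr1d2 1.17, Elovl6 1.15, Foxo1 1.07, Ptprn2 0.99 and Hspa5 0.94. The most negative interactions were Ms4a6d -5.25, Retnla -4.96, Gpnmb -4.89, Pf4 -4.86, Ifi204 -4.85, Ccl9 -4.76, Krt20 -4.41, Irf7 -4.38, Ccl6 -4.15, Zbp1 -4.05, Lyz1 -3.95 and Folr2 -3.95. Next came Cxcl3 -3.90, Fgg -3.85, Fabp4 -3.68, Bst2 -3.66, Oas2 -3.66, Cd36 -3.49, Fcgr1 -3.42, Ccl5 -3.37, Cfb -3.29, Gbp3 -3.28, Cd68 -3.26 and Plin2 -3.08. These were followed by Cd209d -2.99, Anxa3 -2.91, Ccl2 -2.88, Iigp1 -2.83, H2-T23 -2.78, Car9 -2.66, Mrc1 -2.50, Tap1 -2.46, Ccl7 -2.45, Angptl4 -2.44 and Cp -2.41. Lower in size were Irgm2 -2.40, Igtp -2.37, Mlkl -2.33, F13a1 -2.28, Cldn5 -2.06, Psmb10 -1.95, Serping1 -1.85, Psmb8 -1.85, Ldha -1.71, Retnlg -1.65 and P4ha1 -1.47. Nearer 0 were Acadl -1.37, Myh11 -1.31, S100a8 -1.23, Pgk1 -1.21, Tnfsf15 -1.11, Tnfsf10 -1.10, Casp8 -1.07, Ikbkg -0.95, Ndufa4 -0.84, Cox7a2 -0.64 and Ndufv2 -0.59. For the change with diet in TRAF3 minus that in TRAF2 knockouts, the log2 values were Fosb 7.70, Npas4 6.59, Atf3 5.08, Nr4a1 4.38 and Rsph4a 3.81 among positive ones, and Retnla -6.05, Folr2 -4.21, Pf4 -4.09, Cd209d -3.60 and Cd36 -3.51 among negative ones.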

How the results depend on the processing

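Of the 1287 genes with an interaction, 1133 also passed when arrays were centred, 1205 when normalized again by quantiles and 1254 when moderated with a trend and robust prior. With the female arrays only, the counts were 144 for the interaction, 121 for the knockout on HFD, 401 on chow, 125 for HFD against chow in TRAF3 knockouts, 55 in controls and 0 in TRAF3 minus TRAF2 knockouts (927 at an unadjusted p under 0.05 in limma), from fewer samples. With only the arrays compared the counts were 144 on HFD, 608 for diet in TRAF3 knockouts and 78 in controls, from fewer samples. With the ductal score as a covariate they were 1312 on HFD, 676 on chow, 996 for diet in TRAF3 knockouts and 1354 in controls, and with the acinar score 874, 4097 and 358 on HFD, on chow and for diet in controls. For diet in controls, centring gave 487, leaving out dim genes 306 and the sex score 49. Without both least spread arrays, diet in TRAF3 knockouts gave 2906 and TRAF3 minus TRAF2 knockouts 998. With every probe set of the table the last gave 334. The cause of these moves was not tested otherwise.

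Leaving out 1 array gave 414 to 1963 interactions, 249 to 746 genes on HFD, 786 to 2410 on chow, 618 to 2466 for diet in TRAF3 knockouts, 19 to 603 in controls and 140 to 1582 in TRAF3 minus TRAF2 knockouts. Of the 85 named genes that passed the interaction, 38 passed whichever array was left out and 13 under every alternative run. H2-Aa, which did not pass, ranged from -0.12 (without HFD knockout 2) to 0.47 over the arrays left out.

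Deviations from the group means correlated at r over 0.1 in 9 of 18 same-numbered pairs (median 0.1305) and in 9 of 36 others (median -0.0925). The pairs of number 3 lay between 0.193 and 0.529, and 7 of 12 arrays were closest to their own number. Same-numbered arrays thus tended to be more alike than others, most clearly those of number 3. Deviations sum to 0 within each group, so the lower values of the other pairs are not separate evidence. Number 3 includes HFD knockout 3 and HFD control 3 (r = 0.493), the arrays with the least spread of values. What the numbers stand for was not tested, and the main fit took no account of them. The replicate block gave 1366 interactions, 546 genes on HFD, 2590 on chow, 1942 and 189 for diet in TRAF3 knockouts and controls, and 525 in TRAF3 minus TRAF2 knockouts. Genes whose lowest group mean lies below the array medians, such as Retnla, Gbp3, Fgg and Tph1, have uncertain sizes.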
